A study of Mus musculus with 23 samples.

Results

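The 10 genes described here encode enzymes that make serine and carry its one-carbon units through the folate cycle, together with asparagine synthetase, and they were followed through the loss and return of Argonaute proteins in mouse embryonic stem (ES) cells. They were chosen by symbol (Phgdh, Psat1, Psph, Shmt1, Shmt2, Mthfd1, Mthfd1l, Mthfd2, Aldh1l2 and Asns) among 18412 genes, and all 10 have a row in each of the 6 tables, which hold exon and intron reads of 3 series of libraries. Argonaute proteins bind microRNAs and repress the mRNAs that these match. Polyadenylated RNA was sequenced from 23 samples in 11 groups, grown on gelatin in serum and LIF with a supplement of nonessential amino acids, a mixture that holds serine, glycine and asparagine.

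The genetic series held wild-type AB2.2 cells (n = 2), the line B9 labelled Blm-/-;Ago1,3,4-/- (n = 2), the line E7 labelled Blm-/-;Ago1,2,3,4-/-;CreERT2;hAgo2fl (n = 3), and the clones C62 and C86 labelled Blm-/-;Ago1,2,3,4-/-;CreERT2, treated as 1 group (n = 2). All mutant lines lack Blm, a DNA helicase, which the wild type keeps, so loss of Blm and of Argonautes cannot be told apart in comparisons with wild type. The other series used TT-FHAgo2 cells, whose label adds TT-FHAgo2 to the genotype of these clones and in which doxycycline turns on Ago2. In the time course these cells had 2.5 µg/mL doxycycline for 48 h, the dose said to give the wild-type amount of Ago2, and were then deprived of it during 0, 24, 48 or 96 h, with n = 2 at each time. In the rescue, cells propagated at 0.1 µg/mL were held without doxycycline for 96 h (n = 2), or for 96 h and then given 0.1 or 2.5 µg/mL for 48 h (n = 2 each). By design doxycycline and Ago2 changed together, and time in culture differed between the groups. The dosed rescue groups were 48 h longer in culture than those without. Doxycycline, Ago2 and time therefore cannot be told apart. The labels do not say whether libraries of a group came from separate cultures, and the p-values measure only the spread between these libraries.

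Serine is made from the glycolytic intermediate 3-phosphoglycerate by Phgdh, Psat1 and Psph in turn. Shmt2 in mitochondria and Shmt1 in the cytosol split it into glycine and a one-carbon unit bound to tetrahydrofolate. In mitochondria Mthfd2 and Mthfd1l turn that unit into formate, which leaves for the cytosol, where Mthfd1 recharges folate for purine and thymidylate synthesis. Aldh1l2 oxidises the mitochondrial unit to carbon dioxide and makes NADPH, and Asns makes asparagine from aspartate and glutamine. Many of these genes are known targets of Atf4, a transcription factor whose translation rises when amino acids run short or unfolded protein accumulates.

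Promoters are shown because most of the genes moved together. Of the members, 9 matched a RefSeq promoter (10 promoters, 2 of them of Psat1; build GRCm38.p6), and the 250 bases before each start were searched on both strands. Of 8 motifs searched, the composite site of C/EBP and ATF factors, TGATGNAA, was found in Asns alone among the members and in 3.45% of 32851 promoters. The CCAAT box, CCAAT or ATTGG, was found in 6 of 9 members (Mthfd1, Mthfd2, Phgdh, Psat1, Psph and Shmt1) and in 33.8% of promoters. The looser TGANGNAA (14.1% of promoters), which contains TGATGNAA, and TGACG (17.8%), the core of TGACGTCA, were each found in Asns, Mthfd1l and Shmt1. The letters TTGCATCA (0.791%), which overlap TGATGNAA on the other strand, CACGTG (6.02%), TGACGTCA (1.55%) and GTTACA (7.07%) were in none of the 9. The stretches below were picked after these matches were seen. They lie on the minus strand and leave out bases that GENCODE M21 places in an exon of the same gene, except for the short Asns stretch, which GENCODE places in the first exon. The RefSeq starts of Mthfd2 and Psat1 used here lie inside the spans that GENCODE gives these genes. The printed stretches show the Asns letters, 23 to 16 bases before the RefSeq start, and the CCAAT boxes of Mthfd2, Psat1 and Phgdh, in capitals. A second Phgdh box, 23 to 19 bases before its start, runs into an exon and is not printed.
Asns, chr6:7693214-7693243: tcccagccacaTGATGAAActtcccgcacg
Mthfd2, chr6:83317607-83317854: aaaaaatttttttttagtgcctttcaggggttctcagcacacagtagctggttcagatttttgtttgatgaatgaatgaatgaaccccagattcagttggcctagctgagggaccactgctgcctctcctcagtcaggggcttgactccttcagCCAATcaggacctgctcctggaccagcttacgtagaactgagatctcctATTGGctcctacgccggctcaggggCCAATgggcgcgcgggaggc
Psat1, chr19:15925060-15925309: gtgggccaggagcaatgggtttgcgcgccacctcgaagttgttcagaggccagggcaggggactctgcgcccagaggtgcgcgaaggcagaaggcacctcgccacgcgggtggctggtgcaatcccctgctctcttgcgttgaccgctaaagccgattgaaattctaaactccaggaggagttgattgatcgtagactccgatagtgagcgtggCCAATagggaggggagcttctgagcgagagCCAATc
Phgdh, chr3:98339991-98340219: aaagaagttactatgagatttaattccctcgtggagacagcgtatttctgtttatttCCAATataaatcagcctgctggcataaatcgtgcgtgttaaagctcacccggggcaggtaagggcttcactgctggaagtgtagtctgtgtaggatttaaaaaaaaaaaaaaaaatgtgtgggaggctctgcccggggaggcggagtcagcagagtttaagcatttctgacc

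In GENCODE M21 (GRCm38) all 10 are protein-coding: Phgdh on chromosome 3 from 98313170 to 98339990, Psph on 5 from 129765558 to 129787449, Asns on 6 from 7675169 to 7693254, Mthfd2 on 6 from 83305691 to 83325908, Mthfd1l on 10 from 3973118 to 4167081, Aldh1l2 on 10 from 83487450 to 83534140, Shmt2 on 10 from 127517123 to 127522444, Shmt1 on 11 from 60788104 to 60811718, Mthfd1 on 12 from 76255298 to 76319803 and Psat1 on 19 from 15904678 to 15947337. Genes on the opposite strand overlap 6 of them: Psph (with Cct6a), Aldh1l2 (D10Wsu102e), Shmt2 (Ndufa4l2), Shmt1 (Smcr8), Mthfd1 (Gm47525 and others) and Psat1 (the pseudogene Gm3329). The libraries keep strand, but whether the counting used it is not given in the sources used here. Reads of such pairs may thus be mixed. On the same strand, Gm43890 overlaps Mthfd2, and the pseudogene Gm16074 and the snRNA Gm25515 overlap Mthfd1l, which strand would not separate.

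Libraries held 13.5 to 53.7 M exon reads (genetic series), 32.9 to 62.4 M (time course) or 24.7 to 53.8 M (rescue). Libraries of 1 group differed by a median absolute log2 value of 0.322 to 0.570 in the genetic series, most of all between the clones, against 0.0733 to 0.0955 and 0.0825 to 0.106 in the other series, so small changes could be called there and not among genotypes. Ago1 had 0 reads in every mutant library. Ago3, labelled deleted in every mutant line, had more exon reads in most mutant libraries than in wild type: 366 and 607 in wild type, 1326 and 1568 in B9, 1378, 1963 and 1227 in E7 and 2146 and 578 in the clones, and in TT-FHAgo2 cells group means of 4533 at 0 h and 2181 at 96 h, and of 1939 to 2416 in the rescue. Ago4 had 7.82 and 48.1 in wild type, 5.75 to 18.4 in B9 and E7 and 25.1 and 25.3 in the clones. The part of these genes that was deleted is not given in the sources used here, so their rows neither bear out nor contradict the labels, and genotypes are named below as labelled. Ago2 had 6227 ± 1452 normalised exon reads in wild type and 5819 ± 876 in the clones (SD, n = 2 each). Its exon row thus does not show the deletion. In TT-FHAgo2 cells its group means were 11963 at 0 h and 10794 at 96 h. In the rescue they were 7280 without doxycycline, 7724 at the lower dose and 5689 at the higher dose. The row was thus lowest at the higher dose. It does not show doxycycline turning on Ago2, and it checks no label. Ago2 introns had 206 and 220 reads in wild type and B9, as means, and 1239 and 1661 in E7 and the clones. Stem cell markers were abundant in every group but did not move as one, as the authors' group means. Nanog had 14860 in wild type and 34417 to 35382 in the mutant lines, and Esrrb 18717 and 31560 to 36623, while Pou5f1 was lowest in the clones (29427, against 36227 in wild type). From 0 to 96 h Nanog went from 46531 to 67569, Pou5f1 from 74712 to 67395 and Zfp42 from 74105 to 53136. The part of these differences in the results below was not tested. In bulk RNA, fewer cells of a type and less RNA per cell cannot be told apart. Normalised reads, given below, are reads divided by the authors' size factor, and series are not compared in level.

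Most of the pathway fell after doxycycline was removed. At 96 h all 10 genes had fewer exon reads than at 0 h by limma (adjusted p below 0.05), in a comparison where 32.5% of all genes tested were lower, and no library at 96 h reached the level of a library at 0 h for any of the 10 (40.9% of all genes were lower without overlap). The median log2 change of the 10 was -0.96, against -0.01 over all 13652 genes tested. The falls ran from 3.35-fold for Aldh1l2 to 1.07-fold for Mthfd1.

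The serine synthesis enzymes fell at each step of the pathway. Phgdh, the entry enzyme, had 6946 and 6561 normalised exon reads in its libraries (0 h), 5533 and 5535 (24 h), 5079 and 4871 (48 h) and 2612 and 2818 (96 h). Its largest step was the last: the log2 change was -0.29 (SE 0.05, adjusted p = 6.38e-05) at 24 h and -1.31 (SE 0.05, adjusted p = 3.19e-16) at 96 h, and from 48 to 96 h it was -0.87 (SE 0.05, adjusted p = 1.05e-11). Psat1, the aminotransferase, went the other way about, with most of its fall on the first day: 27615 and 26735 reads (0 h), 17995 and 18226 (24 h), 16681 and 17554 (48 h) and 14382 and 13969 (96 h). Its log2 change was -0.59 (SE 0.04, adjusted p = 6.1e-11) at 24 h and -0.94 (SE 0.04, adjusted p = 2.28e-15) at 96 h. Psph, the phosphatase that ends the pathway, had 2618 and 2658 reads (0 h), 1856 and 1871 (24 h), 1461 and 1338 (48 h) and 1333 and 1265 (96 h). By 48 h its log2 change was -0.92 (SE 0.07, adjusted p = 2.82e-11), and from 48 to 96 h it moved by -0.11 (SE 0.07, adjusted p = 0.216). Of the log2 change at 96 h, 21.8% was thus present at 24 h in Phgdh, 49.0% in Psph and 62.3% in Psat1.

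**Figure D1:**
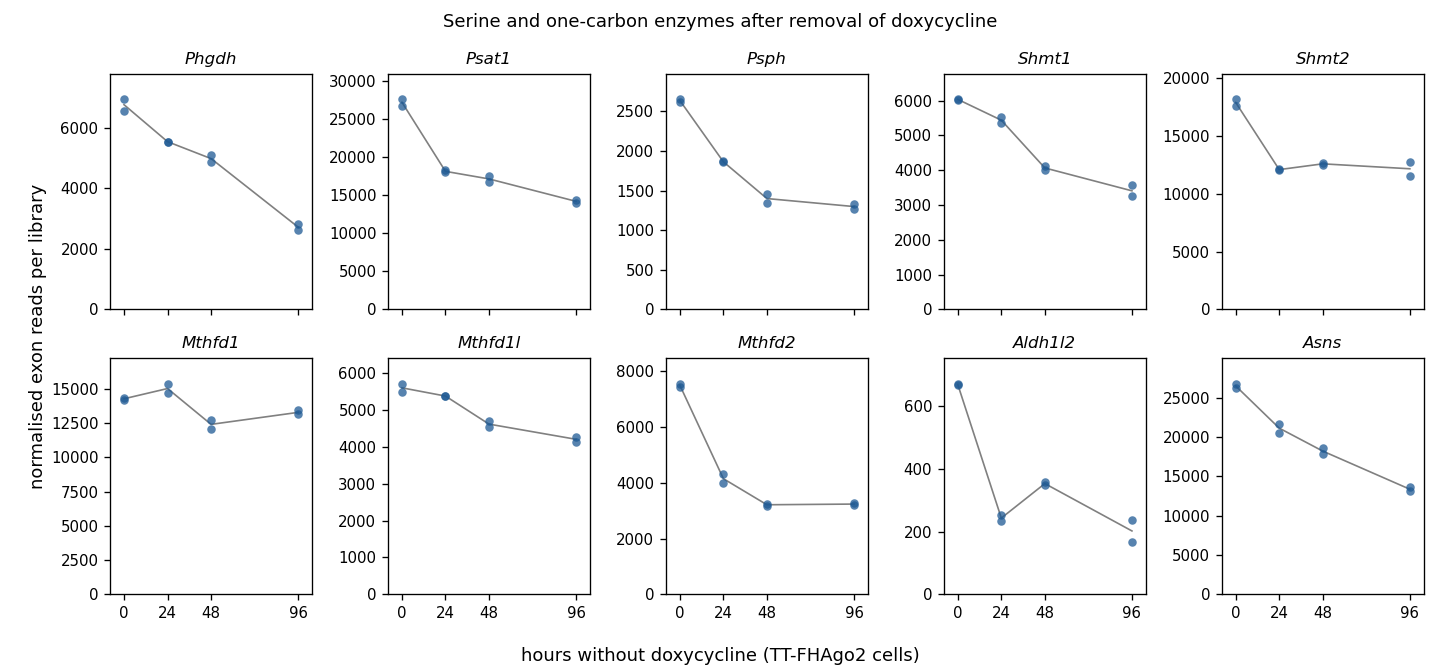
Normalised exon reads of the 10 enzyme genes (vertical axes, each from 0) against hours without doxycycline in TT-FHAgo2 cells; points are libraries (n = 2 a time) and lines join the means. Phgdh fell most after 48 h, Mthfd2 and Shmt2 had fallen by 24 to 48 h and then stayed within a narrow range, and Mthfd1 stayed between 12096 and 15378.

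In the mitochondrial arm Shmt2, Mthfd2 and Aldh1l2 fell early, and Mthfd1l fell late. Shmt2, which feeds this arm, had 17614 and 18232 reads (0 h), 12076 and 12142 (24 h), 12519 and 12698 (48 h) and 11584 and 12778 (96 h). The whole of its fall was present at 24 h (log2 change -0.57, SE 0.05, adjusted p = 5.19e-10), and the later steps were not called, except that the step from 48 to 96 h was called without library 2 of 96 h (-0.12, adjusted p = 0.0406, against -0.05 with it). Mthfd2 had 7546 and 7439 reads (0 h), 4309 and 3979 (24 h), 3237 and 3182 (48 h) and 3190 and 3279 (96 h). It fell by 0.86 on the log2 scale at 24 h (SE 0.05, adjusted p = 3.87e-12) and by 1.22 at 48 h (SE 0.05, adjusted p = 1.86e-15), and 96 h differed from 48 h by 0.01 (SE 0.05, adjusted p = 0.892). Aldh1l2, the member with the fewest reads, had 671 and 666 (0 h), 253 and 233 (24 h), 349 and 356 (48 h) and 166 and 238 (96 h). It was the only member whose exon reads were called higher between any times: after a log2 change of -1.46 at 24 h (SE 0.15, adjusted p = 2.27e-08) it gained 0.54 by 48 h (SE 0.15, adjusted p = 0.0055) and fell by 0.82 to 96 h (SE 0.15, adjusted p = 0.000116). Mthfd1l, the last mitochondrial step, changed late and little, with 5717 and 5496 reads (0 h), 5393 and 5372 (24 h), 4699 and 4542 (48 h) and 4138 and 4279 (96 h). Its log2 change was -0.06 at 24 h (SE 0.05, adjusted p = 0.321) and -0.41 at 96 h (SE 0.05, adjusted p = 6.44e-08).

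Of the cytosolic enzymes, Shmt1 fell and Mthfd1 hardly moved. Shmt1 had 6047 and 6019 reads (0 h), 5521 and 5349 (24 h), 4112 and 4014 (48 h) and 3563 and 3250 (96 h), with a log2 change of -0.83 (SE 0.05, adjusted p = 1.45e-12) at the end. Its small change at 24 h (-0.15, SE 0.05, adjusted p = 0.0173) was lost without either library of 0 h or library 2 of 24 h (adjusted p = 0.0616 to 0.118). Mthfd1 had 14363 and 14197 reads (0 h), 15378 and 14677 (24 h), 12727 and 12096 (48 h) and 13442 and 13132 (96 h). Its log2 change was 0.07 at 24 h (SE 0.04, adjusted p = 0.153), -0.20 at 48 h (SE 0.04, adjusted p = 0.000206) and -0.10 at 96 h (SE 0.04, adjusted p = 0.0344), and the last call was lost without either library of 0 h or library 2 of 96 h (adjusted p = 0.0736 to 0.128). Asns, outside the folate cycle, fell at each time: 26764 and 26210 reads (0 h), 20541 and 21700 (24 h), 18550 and 17857 (48 h) and 13596 and 13116 (96 h), with a log2 change of -0.99 (SE 0.04, adjusted p = 1.26e-15).

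By time, 8 members were lower at 24 h and 0 higher (24.1% and 26.5% of all genes), and 10 were lower at 48 h (31.2%). The median log2 changes of the members were -0.41 and -0.56, against 0.01 over all genes at both times. From 24 to 48 h 7 members fell and 1 rose (18.8% and 20.2% of all genes). From 48 to 96 h 6 fell and 0 rose (16.3% and 20.1%): Phgdh, Aldh1l2, Asns, Psat1, Shmt1 and Mthfd1l. The fall of Phgdh from 24 to 48 h was lost without either library of 24 h or library 2 of 48 h (adjusted p = 0.0766 to 0.182), and that of Mthfd1l from 48 to 96 h without either library of 48 h or library 1 of 96 h (adjusted p = 0.0656 to 0.209). The calls of the 3 later groups share the libraries of 0 h, and those of neighbouring steps share a group.

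Giving doxycycline back raised 9 of the 10. With 2.5 µg/mL for 48 h 9 members were higher than without it, where 31.8% of all genes were higher, and Mthfd1 was not called. With 0.1 µg/mL the same 9 were higher (22.0% of all genes). The median log2 change of the 10 was 1.06 at the high dose and 0.67 at the low dose, against 0.00 and -0.01 over all 13176 genes tested. For all 9 the libraries of the 3 doses were ordered without overlap, from none through 0.1 to 2.5 µg/mL. By single comparisons, 35.4% of all genes were higher without overlap at 0.1 µg/mL, 40.6% at 2.5 µg/mL and 34.9% at 2.5 against 0.1 µg/mL. The share of all genes ordered over all 3 doses was not computed.

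Phgdh had the largest rise, from 1402 and 1520 normalised exon reads (none) through 3228 and 3449 (0.1 µg/mL) to 5790 and 5703 (2.5 µg/mL). This was 2.29-fold at the low dose (log2 change 1.19, SE 0.06, adjusted p = 1.8e-14) and 3.93-fold at the high dose (1.98, SE 0.06, adjusted p = 3.54e-20). Psat1 went from 10939 and 10818 reads to 17118 and 16385 and then 24435 and 24587, a log2 change of 1.17 at the high dose (SE 0.04, adjusted p = 1.83e-18). Psph went from 894 and 943 to 1517 and 1591 and then 2676 and 2414 (1.47, SE 0.07, adjusted p = 1.22e-15). All 3 steps of serine synthesis were thus higher at each dose. Mthfd2 rose from 2352 and 2286 reads to 3687 and 3923 and then 6265 and 6386 (log2 change 1.45, SE 0.05, adjusted p = 2.94e-18). Aldh1l2 rose from 125 and 151 to 264 and 315 and then 488 and 470 (1.79, SE 0.16, adjusted p = 1.66e-10). With Phgdh and Psph, these mitochondrial enzymes had the largest rises among the members.

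Shmt2 went from 7548 and 7512 reads to 10821 and 10509 and then 14562 and 13728 (log2 change 0.91, SE 0.05, adjusted p = 1.21e-15). Shmt1 went from 2258 and 2185 to 3795 and 3892 and then 4333 and 4036 (0.91, SE 0.06, adjusted p = 1.04e-13). The paralogues had like changes at the high dose and unlike shares of them at the low dose: Shmt1 had 86.7% of it at 0.1 µg/mL, and its step from 0.1 to 2.5 µg/mL was 0.12 (SE 0.06, adjusted p = 0.0857), while Shmt2 had 55.2%. The difference between these shares was not tested, and the step of Shmt1 was called without library 2 of the high dose (0.17, adjusted p = 0.0281). The other 7 members called at the high dose had 49.3 to 60.3% of their change at the low dose. Asns went from 10075 and 10076 reads to 14271 and 14457 and then 19233 and 19431 (log2 change 0.94, SE 0.04, adjusted p = 1.29e-16). Mthfd1l went from 3137 and 3207 to 3652 and 3808 and then 4406 and 4091 (0.42, SE 0.06, adjusted p = 1.99e-07), the smallest rise called, and its step between the doses was lost without library 1 of either dose (adjusted p = 0.0830 and 0.0849). Mthfd1 had 9597 and 10001 reads without doxycycline, 9791 and 9518 at the low dose and 10015 and 9553 at the high dose (log2 change -0.00, SE 0.05, adjusted p = 0.968), so its groups overlapped. From the low to the high dose 8 members were higher, all but Shmt1 and Mthfd1 (20.0% of all genes). The call of Mthfd1l there (0.19, adjusted p = 0.00774) was lost without library 1 of either dose (adjusted p = 0.083 and 0.0849).

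**Figure D2:**
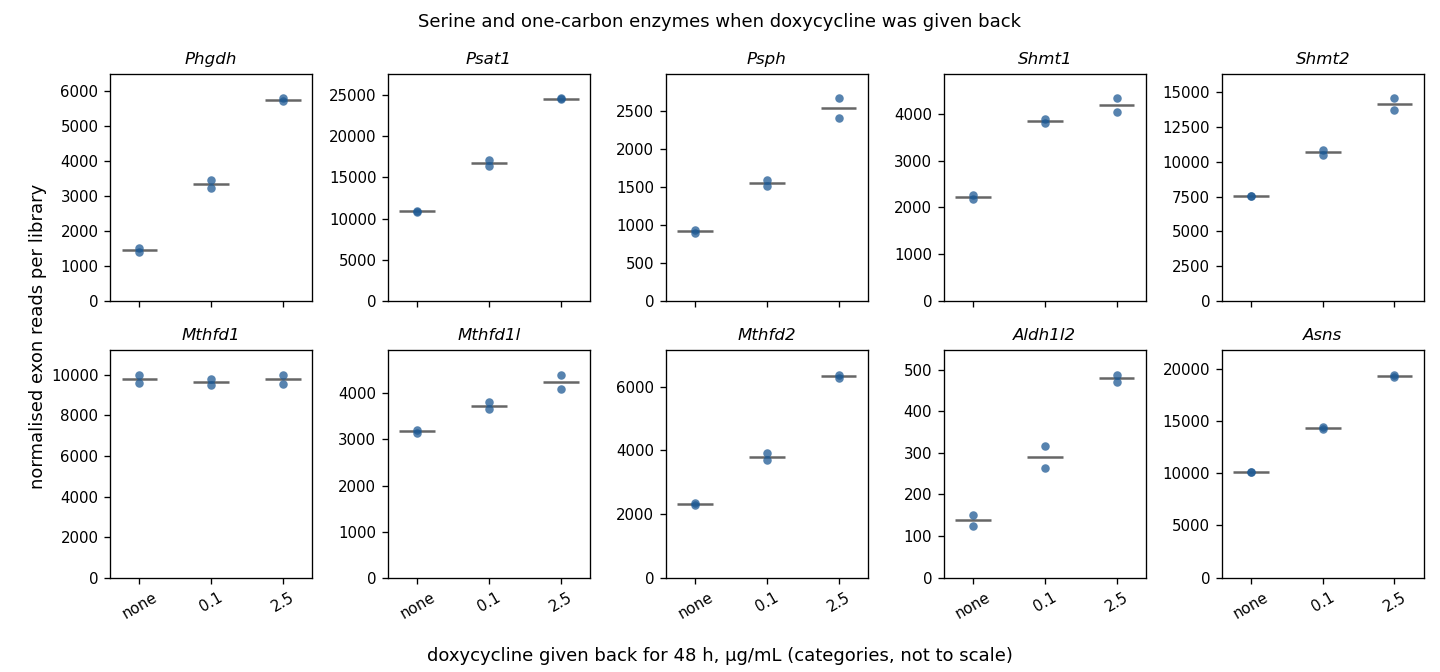
Normalised exon reads of the 10 enzyme genes (vertical axes, each from 0) without doxycycline and after 48 h at 0.1 or 2.5 µg/mL (horizontal axis, categories); points are libraries (n = 2 a dose) and bars are means. The 9 genes other than Mthfd1 are ordered by dose without overlap, and Mthfd1 stays between 9518 and 10015.

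Unspliced RNA, read in introns, moved with most of these changes. At 96 h without doxycycline 8 members were lower in introns (21.8% of all genes), with a median log2 change of -0.82 against 0.00 over all genes; 8 were lower at 24 h (18.3%) and 9 at 48 h (21.2%). Of the calls at 24 h, that of Phgdh was lost without library 1 of 0 h or library 1 of 24 h (adjusted p = 0.105 and 0.0851), and that of Mthfd1 without library 2 of 0 h or library 1 of 24 h (adjusted p = 0.274 and 0.189). Phgdh introns had 513 and 450 normalised reads (0 h) and 139 and 195 (96 h), a log2 change of -1.54 (SE 0.15, adjusted p = 3.39e-10). Psat1 introns had 2445 and 2505 (0 h), 1302 and 1358 (24 h) and 1156 and 1317 (96 h) (-1.0 at 96 h, SE 0.07, adjusted p = 7.01e-13). Asns introns had 2347 and 2197 (0 h) and 1005 and 1152 (96 h) (-1.08, SE 0.07, adjusted p = 1.67e-13). The exon changes of these 3 genes at 96 h were -1.31, -0.94 and -0.99. Aldh1l2 introns were sparse, with 142 and 136 reads (0 h), 41.7 and 32.0 (24 h) and 25.1 and 42.2 (96 h) (-2.06, SE 0.30, adjusted p = 1.54e-06). Mthfd1, nearly level in exons, had 2758 and 2935 intron reads at 0 h and 2324 and 2337 at 96 h (-0.29, SE 0.06, adjusted p = 0.0002). Mthfd1l introns fell to 591 and 602 reads at 48 h from 906 and 843, and were higher again at 96 h, with 716 and 804 (0.35 above 48 h, SE 0.09, adjusted p = 0.00699; 1 member higher, 9.17% of all genes), a rise that was lost without library 1 of 48 h or library 2 of 96 h (adjusted p = 0.0663 and 0.129). Its exon reads fell over the same step. Between 24 and 48 h 3 members were lower in introns (4.42% of all genes), Psat1, Shmt1 and Asns, and the calls of Psat1 and Asns were lost without 1 library (adjusted p = 0.0538 to 0.121). Between 48 and 96 h 3 were lower (7.9%), Phgdh, Shmt1 and Asns, and each call was lost without at least 1 library (adjusted p = 0.0808 to 0.361).

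In the rescue 9 members were higher in introns at 2.5 µg/mL (24.3% of all genes; median log2 change 1.16 against 0.05), 7 at 0.1 µg/mL (5.33%) and 7 at the high against the low dose (17.8%). The call of Psph at 2.5 µg/mL was lost without library 1 of the group without doxycycline (adjusted p = 0.138). At 0.1 µg/mL that of Mthfd2 was lost without library 2 of that dose (adjusted p = 0.0771), and that of Mthfd1l without the same library or either library of the group without doxycycline (adjusted p = 0.0859 to 0.230). Between the doses that of Shmt1 was lost without library 1 of the low dose (adjusted p = 0.0522), and that of Psph without either library of the low dose or library 2 of the high dose (adjusted p = 0.105 to 0.139). Phgdh introns went from 106 and 73.3 reads through 188 and 220 to 516 and 583, a log2 change of 2.62 (SE 0.18, adjusted p = 6.06e-12) at the high dose. Mthfd2 introns went from 111 and 150 through 207 and 291 to 433 and 483 (1.82, SE 0.17, adjusted p = 3.62e-09). Shmt2 introns went from 372 and 364 through 631 and 571 to 1065 and 952 (1.45, SE 0.10, adjusted p = 1.75e-11). Mthfd1 introns, with 1621 and 1695, 1852 and 1781, and 1686 and 1806 reads, were not called at either dose (adjusted p = 0.291 and 0.428).

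With doxycycline removed for 96 h or given back at the high dose, Psph was the member whose exons and introns parted most. Its introns had 231 and 280 reads (0 h), 251 and 267 (24 h), 238 and 222 (48 h) and 215 and 220 (96 h), and were not called at any time against 0 h (log2 change -0.23 at 96 h, SE 0.14, adjusted p = 0.204), while its exons fell about 2.03-fold. The exon change minus the intron change, centred per library, was -0.77 at 48 h (SE 0.11, adjusted p = 0.0192) and -0.80 at 96 h (SE 0.11, adjusted p = 0.0174). In the rescue the introns had 126 and 164 reads (none), 157 and 153 (0.1 µg/mL) and 210 and 234 (2.5 µg/mL), and the difference at the high dose was 0.88 (SE 0.17, adjusted p = 0.0395). The direction thus turned with doxycycline. Psat1 at 48 h was the only other member called (0.52, SE 0.11, adjusted p = 0.0392). In these comparisons 1 member was lower at 48 h (4.21% of all genes), 1 higher at 48 h (5.12%), 1 lower at 96 h (4.31%) and 1 higher at 2.5 µg/mL (5.36%). Every one of these calls was lost when any 1 library of its groups was left out and when only the groups compared were fitted (adjusted p = 0.0708 to 0.0888). Cct6a overlaps Psph on the opposite strand, and its part in the Psph reads was not tested. The libraries of 2.5 µg/mL also held a smaller share of intron reads, 8.64% and 8.29% of exon and intron reads together. This share was 12.21% and 11.97% without doxycycline and 12.35% and 12.47% at 0.1 µg/mL.

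**Figure D3:**
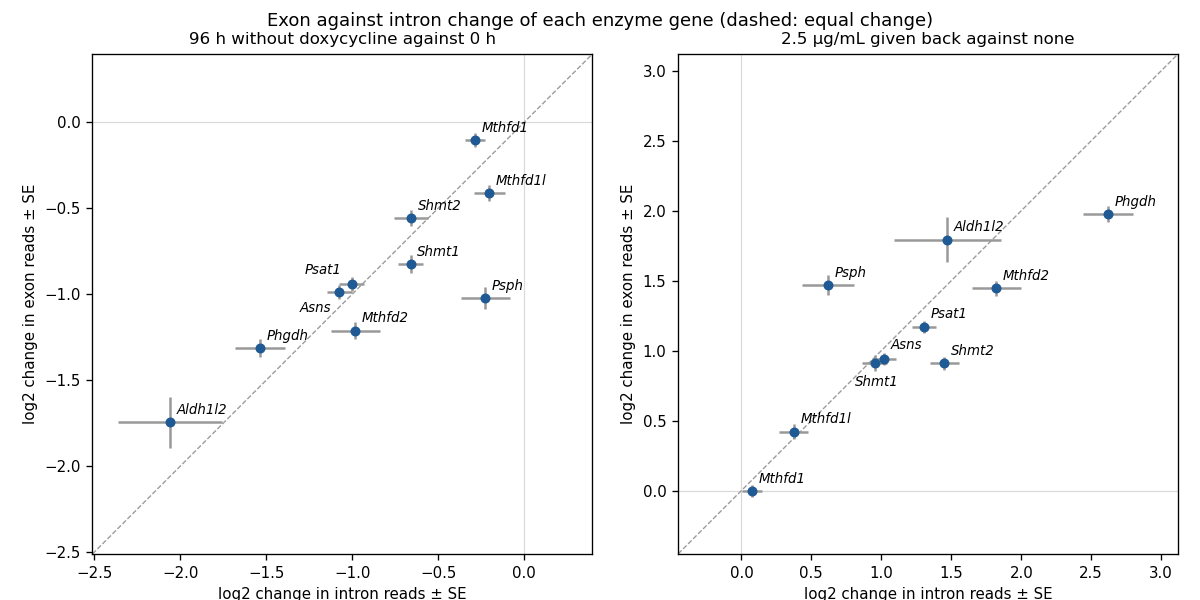
Log2 change in exon reads (vertical) against log2 change in intron reads (horizontal) for the 10 genes, at 96 h without doxycycline against 0 h (left) and at 2.5 µg/mL given back against none (right); bars are SE and the dashed line marks equal change. Psph lies off the line, with a change of -1.02 in exons and -0.23 in introns on the left and of 1.47 and 0.62 on the right.

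Among genotypes Phgdh, Psat1 and Psph were lowest in both libraries of the clones labelled as lacking all 4 Argonautes. Against E7 none of them was called, and the share of all genes lowest in both clone libraries was not computed. Against wild type 4 members were lower, Phgdh, Mthfd2, Psph and Psat1, and 0 higher (7.72% and 10.9% of all genes), with a median log2 change over the 10 of -0.41 against -0.01 over all 13142 genes tested. Against B9 5 were lower, the same 4 and Asns, and 0 higher (5.41% and 7.6% of all genes), with a median of -0.82 against -0.01. These counts rest on few libraries: without 1 library of either group they were 0 to 3 in both comparisons, with 0 without wild-type library 2 and 0 without B9 library 2. The counts over all genes behind the shares moved as well, from 2446 called against wild type to 656 to 3900, and from 1710 against B9 to 407 to 3427.

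Phgdh had 3777 and 3811 normalised exon reads in wild type, 3018 and 3498 in B9, 3080, 2285 and 1841 in E7, and 758 and 1642 in the clones. The clones lay below every other library, 3.4-fold below wild type (log2 change -1.76, SE 0.35, adjusted p = 0.00771). Mthfd2 had 3239 and 2736 in wild type, 2709 and 2400 in B9, 2756, 1501 and 1025 in E7, and 952 and 1152 in the clones, which overlapped E7. Against wild type its log2 change was -1.51 (SE 0.38, adjusted p = 0.0209). Psat1 had 10806 and 9661 in wild type, 11134 and 10839 in B9, 10061, 8932 and 6550 in E7, and 4643 and 5514 in the clones, below every other library (-1.01 against wild type, SE 0.25, adjusted p = 0.0185). Psph had 1210 and 942 in wild type, 1047 and 1231 in B9, 1175, 970 and 733 in E7, and 409 and 580 in the clones, also below every other library (-1.13, SE 0.31, adjusted p = 0.0285). Without wild-type library 2 all 4 calls were lost (log2 change -1.76 for Phgdh, -1.63 for Mthfd2, -1.31 for Psph and -1.09 for Psat1). Without wild-type library 1 those of Mthfd2 (-1.38), Psph (-0.95) and Psat1 (-0.93) were lost. The call of Mthfd2 was also lost without clone library 1 (-1.37) or 2 (-1.64), and that of Psph without clone library 1 (-0.88). With only the 2 groups fitted, limma called neither Psat1 (adjusted p = 0.0581) nor Psph (adjusted p = 0.0754).

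Asns was arranged differently across the lines. It had 4951 and 7058 reads in wild type, 9216 and 16975 in B9, 9288, 12302 and 12855 in E7, and 4834 and 5588 in the clones. The clones and the wild type overlapped (log2 change -0.19, SE 0.32, adjusted p = 0.712), and both lay below every library of B9 and E7. Against B9 the clones were 2.41-fold lower (-1.27, SE 0.32, adjusted p = 0.0263), a call lost without B9 library 2 (adjusted p = 0.178) or clone library 2 (adjusted p = 0.0668). In introns Asns had 391 and 383 in wild type, 777 and 874 in B9, 728, 739 and 684 in E7 and 338 and 348 in the clones. There Asns was the 1 member lower in the clones than in B9 (0.427% of all genes; -1.26, SE 0.27, adjusted p = 0.0424). Against wild type 2 members were lower in introns (1.19%), Phgdh (-2.26, SE 0.48, adjusted p = 0.0196) and Psat1 (-1.28, SE 0.31, adjusted p = 0.0385). All 3 intron calls were lost without any 1 of the libraries compared.

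The other members of the clones were not called against wild type. Shmt1 had 4704 and 2858 exon reads in wild type and the clones 2045 and 3000, a log2 change of -0.57 (SE 0.33, adjusted p = 0.247). Shmt2 had 5379 and 4930 in wild type, 8661, 7173 and 4621 in E7 and 4162 and 7503 in the clones, so that the clones spanned both wild-type libraries (0.12 against wild type, SE 0.33, adjusted p = 0.832). Mthfd1 (6713 and 6921 in wild type, 6561 and 8709 in the clones) and Mthfd1l (2874 and 2488, 1844 and 2756) overlapped between these groups. Aldh1l2 had the fewest reads of the members in all genotypes: 67.0 and 55.5 reads in wild type, 80.5 and 123 in B9, 116, 131 and 158 in E7, and 82.0 and 100 in the clones (0.56 against wild type, SE 0.44, adjusted p = 0.39).

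**Figure D4:**
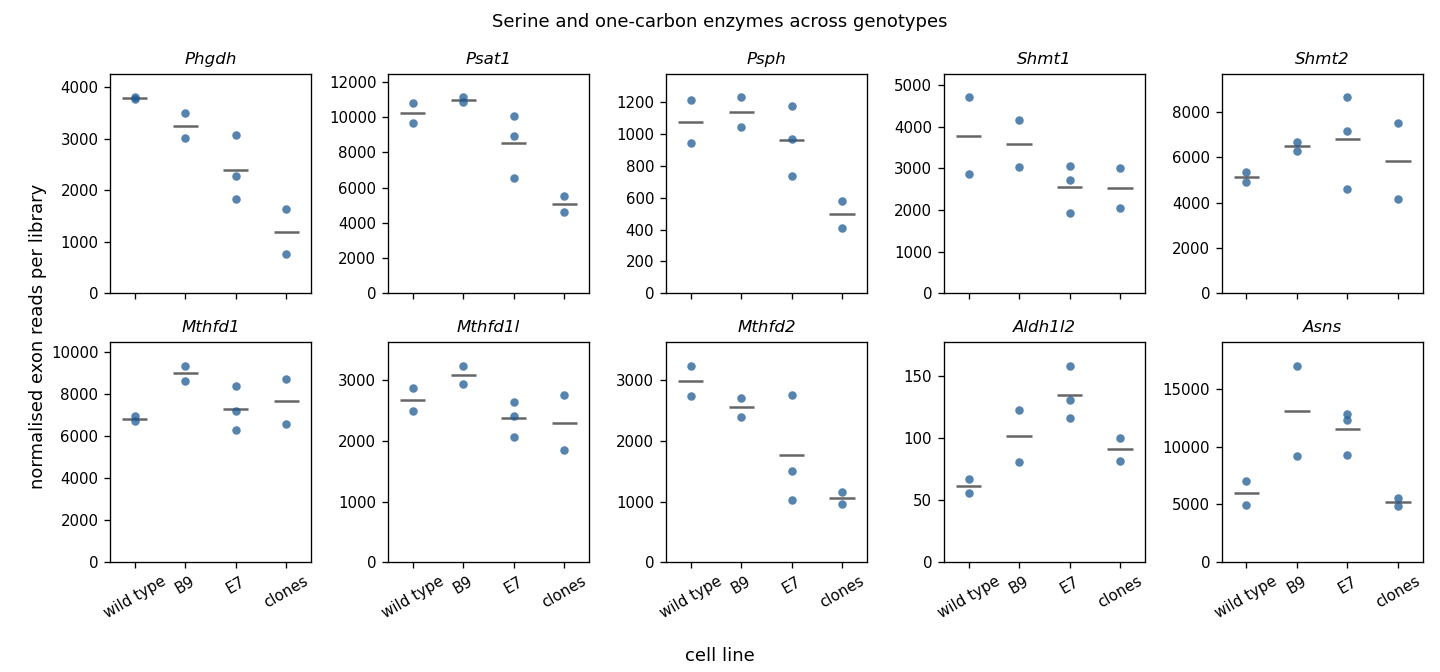
Normalised exon reads of the 10 enzyme genes (vertical axes, each from 0) in wild type, B9, E7 and the clones; points are libraries (n = 2, 2, 3 and 2) and bars are means. Phgdh, Psat1 and Psph are lowest in both clone libraries, though limma did not call them against E7. Asns is lower in wild type and the clones than in B9 and E7.

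In the other genotype comparisons limma called no member. Clones against E7 gave 0 called (0.791% of all genes lower, 0.715% higher) and 4 at an unadjusted p below 0.05: Phgdh (log2 change -1.07, SE 0.32, adjusted p = 0.121), Psat1 (-0.73, SE 0.23, adjusted p = 0.128), Psph (-0.95, SE 0.28, adjusted p = 0.118) and Asns (-1.13, SE 0.29, adjusted p = 0.0796). E7 against wild type gave 0 (1.46% lower, 3.1% higher) and 3 unadjusted, Asns, Aldh1l2 and Mthfd2. B9 against wild type gave 0 (0.0533% lower, 0.0152% higher) and 1 unadjusted, Asns (1.08, SE 0.32, adjusted p = 0.295), and E7 against B9 gave 0 (0.0% lower, 0.0685% higher) and 0 unadjusted. The median SE of a log2 change was 0.336 to 0.368 in this series, against 0.0797 in the time course, and a call that was missed does not show that the lines were alike.

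**Figure D5:**
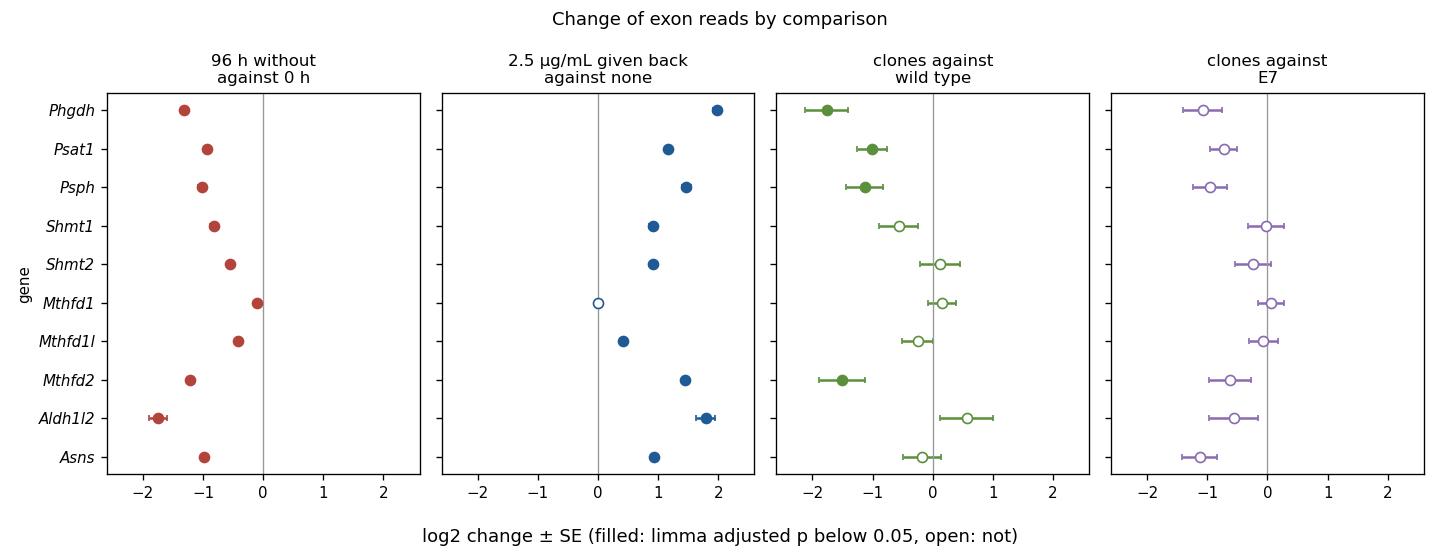
Log2 change of exon reads with SE (horizontal) for the 10 genes (vertical) in 4 comparisons; filled points have a limma adjusted p below 0.05. All 10 are filled at 96 h, 9 when 2.5 µg/mL was given back, 4 for the clones against wild type and none for the clones against E7.

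Side by side, the members kept their order of size only in part. Phgdh changed by -1.31 on the log2 scale at 96 h, 1.98 at the high dose and -1.76 in the clones against wild type, and Mthfd2 by -1.21, 1.45 and -1.51. Aldh1l2 changed by -1.75 and 1.79 but by 0.56 in the clones, and Asns by -0.99 and 0.94 but by -0.19. Mthfd1 changed by -0.10, -0.00 and 0.15. In reads per kilobase of exon, Asns led at 0 h with 13745, before Psat1 (10909), Shmt2 (7776), Mthfd1 (4296), Mthfd2 (3619), Phgdh (3610), Shmt1 (2921), Psph (1716), Mthfd1l (1294) and Aldh1l2 (111). Mthfd2 and Phgdh were closer there than the libraries of Phgdh were to each other. In wild type Psat1 led (4108), before Asns (3116), and Aldh1l2 was again last (10.2).

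Across the 14 libraries of TT-FHAgo2 cells, each gene was centred within its series and set against the mean of the other 9. Pearson's r was 0.987 for Psph, 0.973 for Asns, 0.971 for Psat1, 0.931 for Phgdh, 0.869 for Aldh1l2 and 0.317 for Mthfd1, and over the 45 pairs of members the median was 0.904. These points share groups, lines and doses, and are a description only. No median over pairs of other genes was computed, so these values do not set the members apart. Among 10769 genes with a mean of at least 100 reads in both series, the 5 outside the list nearest to the members' mean were Tars, Drg2, Znhit3, Rnf187 and Timm8a1 (r = 0.988 to 0.990).

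Other genes of the pathways are given by their counts, beside the shares of all genes called: 32.5% lower and 32.4% higher at 96 h, and 31.8% higher and 32.0% lower at 2.5 µg/mL. Atf4 itself had 25357 and 26234 exon reads (0 h), 15537 and 14129 (24 h), 15468 and 15666 (48 h) and 16220 and 16865 (96 h), lowest at 24 h (log2 change -0.80, SE 0.04, adjusted p = 1.36e-12) and at -0.64 at 96 h (SE 0.04, adjusted p = 1.18e-11). In the rescue it went from 10708 and 10725 through 15099 and 14465 to 18435 and 18373 (0.78 at the high dose, SE 0.04, adjusted p = 8.94e-15). Among genotypes it had 8087 and 8234 in wild type, 12502 and 11542 in B9, 12559, 11196 and 8281 in E7 and 5772 and 4625 in the clones, lowest in the clones (-1.22 against B9, SE 0.25, adjusted p = 0.0128, and -0.66 against wild type, SE 0.25, adjusted p = 0.0867). Its introns, 593 bases long, had few reads and were not called in any comparison. Their group means were 166, 147, 147 and 184 at 0, 24, 48 and 96 h. In the rescue they were 87.8 without doxycycline, 112 at 0.1 and 129 at 2.5 µg/mL. A call missed there does not show that unspliced Atf4 RNA stayed level. Of 14 Atf4 pathway genes 10 were lower and 2 higher at 96 h, 12 higher and 0 lower at 2.5 µg/mL, and 3 lower in the clones than in wild type (7.72% of all genes) and 5 than in B9 (5.41%). Chac1, which degrades glutathione, moved most: 1327 and 1357 reads (0 h), 308 and 306 (24 h), and in the rescue 138 and 155, 652 and 747, and 1554 and 1266 (log2 change 3.25, SE 0.12, adjusted p = 3.57e-18).

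Purine synthesis, which uses the one-carbon units, fell in 10 of 12 genes at 96 h (32.5% of all genes) and rose in 9 of 12 at the high dose (31.8%), with 0 the other way in both (32.4% and 32.0%; median log2 changes -0.37 and 0.37). Prps1, which makes the ribose donor, changed by -0.69 (SE 0.05, adjusted p = 8.02e-12) and 0.94 (SE 0.05, adjusted p = 5.65e-15), and Gart, which uses formyl-folate, by -0.61 (SE 0.04, adjusted p = 4.01e-12) at 96 h. Of 12 genes of aspartate, glutamine and proline supply, 8 were lower and 3 higher at 96 h and 8 higher and 2 lower at the high dose. Of 15 tested genes of the folate cycle 6 were lower at 96 h and 5 higher at the high dose, near the shares of all genes, while 2 were higher and 6 lower. The folate carrier Slc19a1 changed by -0.84 (SE 0.09, adjusted p = 1.04e-08) and 1.17 (SE 0.11, adjusted p = 3.09e-10). Of 12 tested genes of glycine cleavage and serine use 4 were lower and 4 higher in each, which is near the shares of all genes and no result about that list. Sfxn1, the mitochondrial serine carrier, changed by -0.79 (SE 0.06, adjusted p = 3.54e-11) at 96 h and 1.1 (SE 0.05, adjusted p = 1.13e-15) at the high dose, and was the 1 gene of its list lower in the clones than in wild type (-1.38, SE 0.24, adjusted p = 0.0043). Serinc5 went against it, with 1.72 (SE 0.06, adjusted p = 4.42e-17) and -1.55 (SE 0.08, adjusted p = 7.62e-16). Of 8 genes of the methionine cycle and transsulfuration 5 were lower and 3 higher at 96 h, and 4 higher and 3 lower at the high dose.

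Markers of other cell types were low beside the stem cell markers, whose 8 genes summed to 463167 to 496301 reads over the time course groups, 332343 to 379284 in the rescue and 193542 to 287346 in the genetic series, as the authors' means. Over the same groups 5 mesoderm and streak markers summed to 357 to 561, 213 to 358 and 196 to 284, 6 endoderm markers to 272 to 323, 188 to 224 and 142 to 389, and 7 fibroblast markers to 239 to 473, 103 to 214 and 96.4 to 472. In every group Afp or another defining marker of at least 1 of these lists was at 0: Col3a1 was at 0 in all time course and rescue groups. The 4 neural markers summed to 8479 to 11476, 3997 to 4718 and 2882 to 8059, highest of the genotypes in the clones, and the 5 trophoblast markers to 3565 to 5063, 2376 to 2668 and 2275 to 3727. The mesoderm and streak sum also moved with doxycycline: it was 357 at 0 h and 561 at 96 h, and 358 without doxycycline and 213 at 2.5 µg/mL, with T at 0 reads at 96 h and without doxycycline. The part of these cells in the changes of the enzymes was not tested.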

How the data were processed

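Strand-specific polyadenylated RNA libraries were aligned with TopHat2 2.0.12 to mm10 and normalised with DESeq, per the submitters' processing notes. No source used here names the read counter or the annotation. Deposited values are signal: reads divided by a size factor, averaged by the authors within each group, with exon and intron rows apart, per the file headers. Of the deposited columns 0 belong to no sample.

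Library values were worked out for the tests: each mean is a sum of whole reads times 1 step per library, and values were searched for whole numbers that give it to a relative misfit of 6e-15. This tolerance was settled after seeing how many values other tolerances left unsolved. Exactly 1 solution existed for 404962 of 405064 values (99.975%), and in 3 simulated columns of 4000 values each, at least 99.825% were solved and 0 wrongly. In the E7 exon column 101 abundant genes (17.7% of its sum) had several solutions. No genetic series exon test includes them, and they hold 6 of 8 stem cell markers and no enzyme described here. Libraries are numbered by depth, and which is which deposited sample, or which clone is C62 or C86, is unknown.

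Normalised reads plus a pseudocount of 1 were tested on the log2 scale, which understates changes of low genes, with limma 3.58.1 (trend, R 4.3.3), 1 fit per table over all its groups, on genes with a mean of at least 10. Calls were made where the p adjusted by Benjamini and Hochberg was below 0.05 over all genes of a comparison, in 14 comparisons of exons, introns and exon minus intron values. Within a group, each intron library was paired with the exon library whose deviations correlated best. The r was 0.472 to 0.629 in the genetic series but 0.0254 to 0.155 in the others. In groups of 2 libraries the other pairing gives the same r with its sign turned. A positive r alone therefore does not bear out the pairing. On simulated data, 85.1% of 1.5-fold changes were called for 24 h against 0 h and 5.97% for clones against E7. In that simulation every gene had the median spread of abundant genes. Python 3.11.15 was used for tables. All 10 members are named in each comparison, Atf4 always, at most 3 called genes of each other list, and the 5 genes nearest in profile. The members and lists were chosen with earlier results of these data known. Alternatives were other size factors, pseudocounts, filters, fits of 2 groups and leaving out each library.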

Additional observations from a re-analysis of the deposited data

How the results depend on the processing

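The counts of members called kept within 1.5 times of their values with TMM factors, a pseudocount of 0.5 and the other matching of exon to intron libraries, an alternative chosen after seeing the data. Fitting only the groups compared gave 1 member higher in exons for E7 against wild type (0 otherwise; Asns, adjusted p = 0.0331), 2 lower for clones against wild type (4) and 1 lower for clones against B9 (5), and in introns 1 (2) and 0 (1) lower. It gave 0 in exon minus intron values at 48 h (1 higher, 1 lower), at 96 h (1 lower) and at 2.5 µg/mL against none (1 higher). With no filter, 0 members were lower in introns for clones against B9, and 0 were higher in exon minus intron values at 48 h and at 2.5 µg/mL. With a filter at a mean of 50, exon minus intron values gave 1 lower at 24 h (0), 2 higher at 48 h (1) and 1 lower at 2.5 µg/mL (0), and a pseudocount of 5 also gave 1 lower there. Without 1 library, members lower in exons numbered 0 to 3 for clones against wild type, 0 to 3 for clones against B9 and 0 to 1 for E7 against wild type (1 without E7 library 1). In introns, 0 to 0 were lower for clones against wild type and against B9, 1 to 2 from 24 to 48 h and from 48 to 96 h (3 each), and 0 to 2 were higher from 48 to 96 h (1). Exon minus intron values gave 0 to 0 members higher at 48 h, lower at 48 h, lower at 96 h and higher at 2.5 µg/mL. The exon counts at 24, 48 and 96 h against 0 h and at either dose against none did not change by over 1.5 times in any alternative run.

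Over 4412 values of single members under alternatives, none that was called turned its direction. Mthfd2 in clones against B9 lost its call with TMM factors (adjusted p = 0.0519), as did Psph introns between the doses (adjusted p = 0.0572). Counts over all genes moved most without 1 library. Exon minus intron calls fell from 1084 to 0 to 14 at 96 h, from 1114 to 0 to 1 at 48 h, from 492 to 0 to 1 at 24 h, from 1280 to 0 to 0 at 2.5 µg/mL against none and from 276 to 0 to 0 between the doses. Exon calls for clones against E7 went from 198 to 16 (without E7 library 2) to 2121 (without clone library 1), against B9 from 1710 to 407 (B9 library 1) to 3427 (clone library 1), against wild type from 2446 to 656 (wild-type library 2) to 3900 (clone library 1), and for E7 against wild type from 599 to 44 (wild-type library 2) to 410. Intron calls went from 460 to 91 to 559 for clones against wild type, from 145 to 31 to 232 against B9, from 1197 to 425 to 452 at 0.1 µg/mL, from 1123 to 464 to 926 from 24 to 48 h and from 2087 to 1023 to 1334 from 48 to 96 h. Under the other alternatives, exon minus intron counts moved too: 1084 genes at 96 h became 327 with no filter, 1721 with a filter at a mean of 50, 551 with the other matching and 0 with only the groups compared. At 48 h the 1114 became 380, 1777, 571 and 0, and at 24 h the 492 became 0, 1119, 72 and 0. At 2.5 µg/mL against none the 1280 became 0 with no filter, 2174 with the filter and 0 with the groups alone, and at 2.5 against 0.1 µg/mL the 276 became 0, 1385 and 0, with 548 at a pseudocount of 5 and 63 with the other matching. With only the groups compared, exon calls for clones against E7 were 38 (198) and against B9 883 (1710), and intron calls were 42 (15) for clones against E7 and 2046 (1197) at 0.1 µg/mL. With no filter intron calls were 705 (1123) from 24 to 48 h, 27 (64) for E7 against wild type and 84 (145) for clones against B9, and exon calls 4 (9) for B9 against wild type and 3 (9) for E7 against B9. The edgeR and DESeq2 fits planned were not run. The deposited values are means over libraries and not counts, though whole reads per library were worked out from them. No paired analysis was possible because the columns carry no replicate numbers. For clones against E7, 5.97% of simulated 1.5-fold changes and 46.3% of 2-fold changes were called. The simulated spread was the median of abundant genes over all groups of the genetic series. The clone libraries differed more (median absolute log2 difference 0.570) than those of E7 (0.322). The part of depth was not tested.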
